A study of Glycine max with 12 samples.

Results

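The genes described here had more abundant transcripts in soybean flowers when water deficit was combined with heat stress (WD + HS). Under either stress alone they stayed at no more than 1.5 times the highest control value. They were chosen from read counts scaled by library size to CPM, the reads of a gene per 1000000 reads counted in its library. The lowest WD + HS library had to reach at least 2 CPM and at least 2 times the highest control (CT) library, and the highest water deficit (WD) and the highest heat stress (HS) library could each be no more than 1.5 times the highest CT library. Of 55897 genes counted, 13 met all conditions. All 12 libraries entered this choice, so that the differences between treatments that it used are given as descriptions without a test.

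RNA was sequenced from whole unopened flowers of soybean (*Glycine max*, cultivar Magellan), with 3 biological repeats in each of 4 treatments. Plants under CT and WD were kept at 28°C by day, and plants under HS and WD + HS at 38°C. Plants under WD and WD + HS received 30% of the water available for transpiration, plants under CT and HS were well watered, and all treatments lasted 10 d from the first open flower. Each repeat pooled 30 to 40 flowers from 8 to 10 plants, and each treatment had a growth chamber of its own, so that the effects of chamber and treatment cannot be told apart.

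In plants, water deficit raises abscisic acid, which closes stomata and turns on genes of dehydration tolerance, whereas heat is met by heat shock factors and the chaperones that they control. When both stresses come together, the closing of leaf stomata that saves water also removes cooling by transpiration, and transcripts may respond to the combination in a way that neither stress alone would show. The comparison of 4 treatments addressed which transcripts did so in flowers. A gene could be in the set only if its combined values lay above all the others, but nothing in the choice required that its product belong to a common pathway.

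Library totals ran from 14049107 to 22415845 reads. Of 5 genes described as floral organ regulators such as AGAMOUS or SEPALLATA, none was at 0 in all libraries, and their summed level was 20.9 to 26.0 CPM in CT, 19.3 to 23.4 in WD, 12.7 to 15.1 in HS and 17.1 to 22.5 in WD + HS. The 4 genes described by pollen or anther terms summed to 47.0 to 51.04 CPM in CT, 46.0 to 58.0 in WD, 50.1 to 52.7 in HS and 55.6 to 59.0 in WD + HS, and all 4 were detected. For 8 genes of the photosynthetic apparatus the sum ran from 87.6 to 216 CPM in CT, from 154 to 227 in WD, from 212 to 251 in HS and from 122 to 327 in WD + HS. The sum of the pollen and anther genes was thus higher in every WD + HS library than in every CT library. The floral organ sum was lower in every HS library than in every CT library. Of all genes tested, 21.2% had every HS library below every CT library. The descriptions behind these sums were at hand mainly for genes that the authors listed as changed under WD or HS. A shift in a sum is therefore not independent of that choice. In a list of 4 genes described by pollen or anther terms, 3 were tested in the fit described below. Of these, 1 was called higher and 1 lower under WD + HS than under CT, beside 17.7% and 19.1% of all genes tested. The sum thus does not stand for each gene. The part of these sums in the results below was not tested. In pooled whole flowers, fewer cells of a type cannot be told apart from less RNA per cell.

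The set was a small corner of the response to the combination. Among genes with at least 2 CPM in every WD + HS library, 372 had every WD + HS library at no less than 2 times the highest CT library. Of these, 214 (57.5%) were over the limit of 1.5 under HS only, 21 (5.65%) under WD only and 124 (33.3%) under both, which left the 13 genes (3.49%). The lowest WD + HS library of the members was 2.00 to 3.78 times the highest CT library, with a median of 2.08, and for the other 359 genes the median was 2.48. At least a 3-fold ratio was reached by 1 of the 13 members and by 119 of the 359 others (33.1%). Combined with the limits on WD and HS, the choice held genes of modest increase, most of them just past the required ratio. The choice used this ratio, and its limits on WD and HS share the CT value. Nothing is read from the difference to the other 359 genes.

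**Figure D1:**
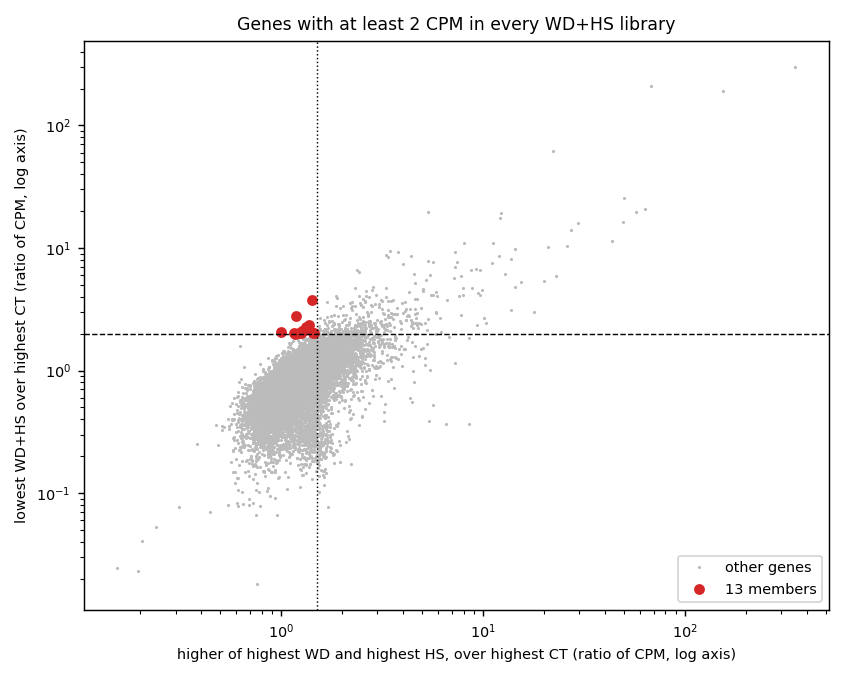
Each point is a gene with at least 2 CPM in every WD + HS library, with the higher of its highest WD and highest HS value over the highest CT value on the x axis and its lowest WD + HS value over the highest CT value on the y axis, both as ratios of CPM on log axes. Genes without a read in CT are not drawn. The dashed line marks a ratio of 2 and the dotted line a ratio of 1.5, and the 13 members are the red points above the former and left of the latter.

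The ratio of 2 was passed narrowly by GLYMA_17G202600 (2.00) and GLYMA_18G039100 (2.01), and missed narrowly by GLYMA_06G301500 (1.996) and GLYMA_01G038400 (1.92). At the limit for WD, GLYMA_18G039100 (1.45) and GLYMA_13G298600 (1.37) were the nearest inside. The nearest outside it were GLYMA_17G187600 (1.52), described as a dehydrin, a class of proteins that protects cells in drying tissue, and GLYMA_06G021200 (1.56), described as a protein with a DC1 domain. At the limit for HS, GLYMA_04G208300 (1.44) and GLYMA_13G298600 (1.42) lay inside and GLYMA_06G062100 (1.51) and GLYMA_09G190000 (1.54) outside. No member was near the minimum of 2 CPM, since the lowest values of GLYMA_06G167900 and GLYMA_07G090400 were 6.01 and 6.18 CPM, and the nearest genes below it, GLYMA_18G202500 and GLYMA_07G158100, had 1.10 and 0.773 CPM.

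Gene descriptions were at hand for 2 of the 13 members, and for 4.41% of all genes counted. They came from the authors' lists, mainly of genes listed as changed under WD or HS, and 3 members had an identifier in these lists. Which members have a description is therefore not independent of their values under a single stress. GLYMA_04G208300 is described as a NAC domain transcriptional regulator, of the plant family of transcription factors named after NAM, ATAF and CUC, many of which act in development and in drought responses. GLYMA_13G090600 is described as a glycine-rich protein, a broad class that holds cell wall structural proteins as well as RNA-binding proteins. The other 11 had no description in the sources used here and are given by identifier. By their identifiers the members lay on 9 of the 20 chromosomes, with at most 2 on any of them, and no member stood next to another in the order of the identifiers.

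The members spanned a wide range of abundance. GLYMA_02G156800, on chromosome 2, had the highest counts. It was at 1084, 1476 and 1427 CPM in the CT libraries, at 1774, 1028 and 1291 under WD, and at 1549.9, 1964 and 1850.1 under HS. Under WD + HS it stood at 3844, 3349.9 and 3457 CPM, 2.67 times the CT mean. The WD libraries surrounded the CT libraries, whereas each HS library was above each CT library and below each WD + HS library.

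GLYMA_08G137000, on chromosome 8, was next, with 779, 858 and 781 CPM in CT, 974, 849.7 and 891 in WD, 863, 1056 and 973 in HS and 1872, 1737 and 1878 in WD + HS. Its replicates were close to each other, with a standard deviation of 4.36% of the mean under WD + HS and 5.58% under CT. Compared per length of transcript, in the fragments scaled by transcript length and library size (FPKM) that the authors computed, GLYMA_08G137000 was the more abundant of the pair. It had 2005 ± 101 FPKM (SD, n = 3) under WD + HS, against 1490 ± 156 FPKM for GLYMA_02G156800.

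GLYMA_08G116900, also on chromosome 8, had 88.8, 89.4 and 94.9 CPM in CT, 106, 89.6 and 93.7 in WD, 104, 122 and 114 in HS and 223, 198 and 204 in WD + HS. The HS libraries were all above the CT libraries by a small margin, and the WD libraries overlapped them. The combined mean of 208 ± 12.9 CPM was 2.29 times that of CT, 2.16 times that of WD and 1.84 times that of HS. These 3 genes were the only members above 40 CPM in any library.

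GLYMA_18G039100, on chromosome 18, was the only member called higher under WD than under CT in the fit described below. It had 18.2, 17.4 and 16.5 CPM under CT and 26.3, 23.7 and 21.4 under WD, without overlap. Under HS it had 18.0, 20.7 and 18.6 CPM, overlapping CT, and under WD + HS 38.7, 36.6 and 38.3 CPM. Its combined mean was 2.18 times that of CT but 1.59 times that of WD, the smallest ratio to WD among the 13 members.

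The glycine-rich protein gene GLYMA_13G090600, on chromosome 13, had 13.2, 10.3 and 10.7 CPM under CT. It was at 14.7, 16.1 and 15.5 CPM under WD and at 15.7, 15.01 and 16.8 CPM under HS, all above the CT libraries. Under WD + HS it reached 27.7, 34.8 and 28.4 CPM. The 2 single stresses thus gave nearly the same level, 15.5 ± 0.746 and 15.8 ± 0.889 CPM (SD, n = 3), and the combination a mean of 30.3 ± 3.90 CPM.

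GLYMA_02G208300, on chromosome 2, was the member that heat alone lowered. From 8.41, 9.68 and 7.98 CPM under CT and 8.40, 8.40 and 9.65 under WD, it stood at 5.003, 6.27 and 6.85 CPM under HS, below each CT and each WD library. Under WD + HS it was at 26.2, 24.2 and 20.1 CPM. The ratio of the combined mean to the HS mean, 3.89, was the largest of the 13 members, and its HS and WD + HS libraries lay on opposite sides of CT.

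The NAC gene GLYMA_04G208300, on chromosome 4, varied most under WD. It had 5.22, 6.33 and 9.09 CPM under CT, 12.0, 5.60 and 9.18 under WD, and 13.1, 11.8 and 9.02 under HS. The 3 groups overlapped, and the WD + HS libraries, with 20.2, 18.3 and 21.7 CPM, lay above all of them. The standard deviation was 36.1% of the mean under WD and 8.35% under WD + HS.

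GLYMA_04G023500, also on chromosome 4, had 6.46, 5.89 and 5.04 CPM under CT, 5.77, 5.11 and 5.83 under WD, 6.14, 6.32 and 7.45 under HS, and 15.7, 13.1 and 17.3 under WD + HS. It was the only member with a WD mean below the CT mean, at 0.961 times, and the libraries of CT and WD overlapped. By FPKM its WD mean was instead above that of CT, at 5.36 ± 1.17 against 4.65 ± 0.500 FPKM, a difference smaller than the spread between the WD repeats.

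The remaining 5 members had fewer reads, between 11 and 140 per library, and counting error weighs more on them. GLYMA_13G298600, on chromosome 13, had the largest ratio between the lowest WD + HS and the highest CT library, 3.78. It was at 1.24, 1.92 and 1.904 CPM under CT, at 2.63, 1.88 and 1.81 under WD, at 2.73, 2.16 and 1.86 under HS, and at 7.66, 7.52 and 7.25 under WD + HS. The combined mean of 7.47 ± 0.212 CPM was 4.43 times the CT mean, from 19 to 43 reads in a CT library and 107 to 125 in a WD + HS library.

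GLYMA_06G167900, on chromosome 6, had the next largest ratio, 2.81. Its CT libraries spread from 0.676 to 2.14 CPM, on 11 to 48 reads, its WD libraries from 1.42 to 2.55 and its HS libraries from 2.17 to 2.44, and the WD + HS libraries were at 6.01, 6.32 and 6.70 CPM. The other 3 genes had combined means of 6.54 to 8.82 CPM. GLYMA_07G090400, on chromosome 7, ran from 0.978 to 2.64 CPM in CT, from 2.95 to 3.61 in WD, from 2.27 to 3.63 in HS and from 6.18 to 6.99 in WD + HS. The WD libraries of GLYMA_07G090400 were all above its CT libraries.

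GLYMA_09G169800, on chromosome 9, ran from 2.61 to 3.07 CPM in CT, from 2.099 to 3.84 in WD, from 3.11 to 3.64 in HS and from 6.18 to 8.22 in WD + HS. GLYMA_17G202600, on chromosome 17, ran from 2.48 to 4.19 CPM in CT, from 4.22 to 4.91 in WD, from 4.63 to 4.84 in HS and from 8.39 to 9.48 in WD + HS. For GLYMA_17G202600 both single stresses were above all CT libraries, and for GLYMA_09G169800 only HS was.

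**Figure D2:**
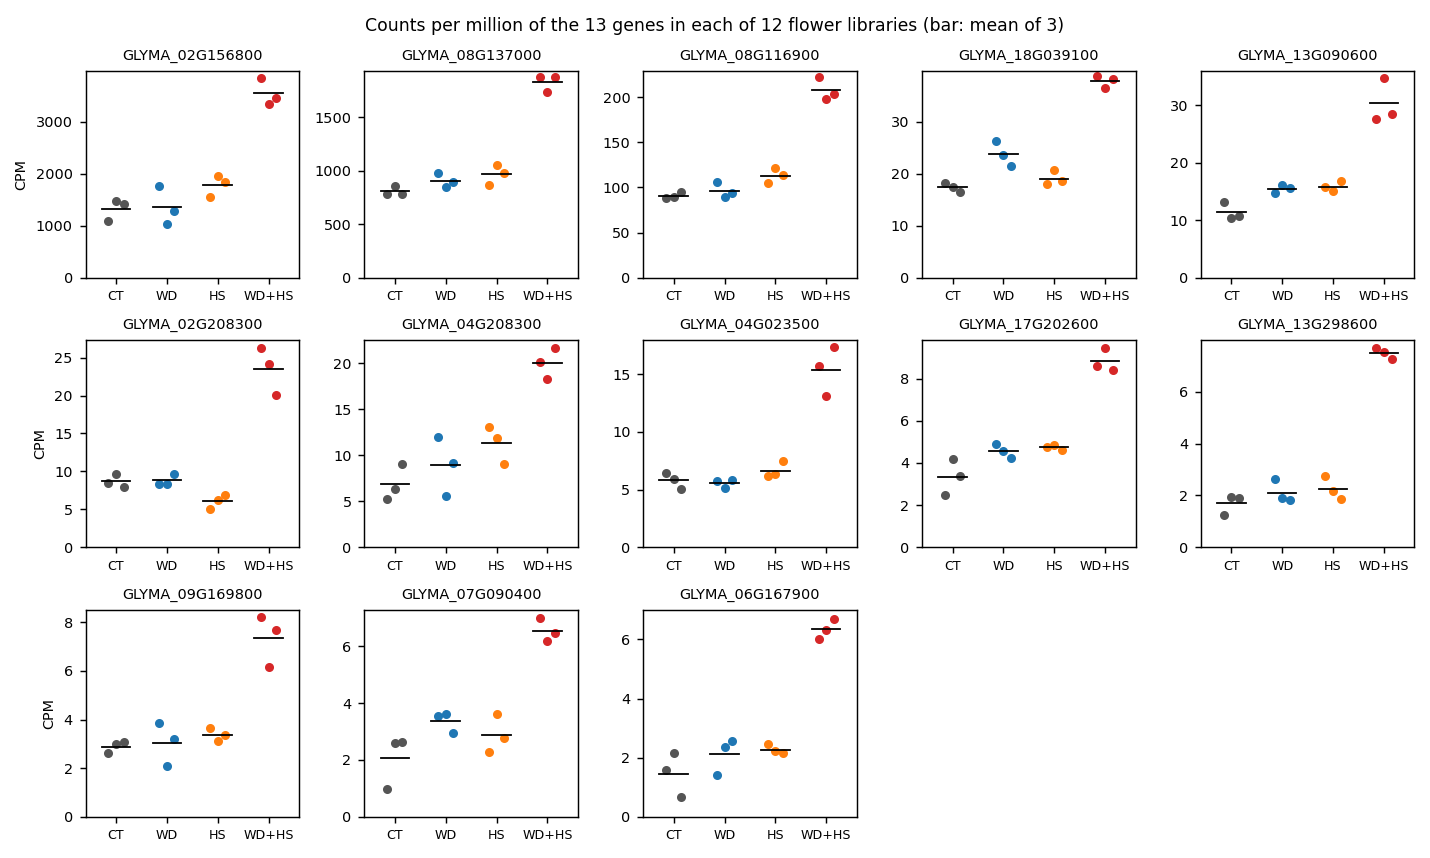
CPM of each of the 13 genes in each library, grouped by treatment, with a bar at the mean of the 3 libraries; each y axis starts at 0 and has its own scale. In each gene the 3 WD + HS points are above all 9 others, with GLYMA_18G039100 and GLYMA_04G208300 showing the smallest gap (1.39 and 1.40 times the highest other library) and GLYMA_13G298600 the largest (2.66 times).

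Replicates were tighter under the combination than under CT in 4 of the 5 genes with the fewest reads, GLYMA_09G169800 being the exception. The standard deviation relative to the mean had a median of 6.59% over the members under WD + HS, 10.0% under HS, 10.3% under WD and 13.7% under CT, and the highest value was 50.6%, in GLYMA_06G167900 under CT. These 5 genes had 11 to 94 reads in a CT library and 88 to 140 in a WD + HS library, and the part of read number in the spread was not tested. The choice set the lowest WD + HS library against the highest CT library, so that these spreads are not independent of it. Nothing is read from the difference in spread between the groups. Replicate 2 gave the lowest WD + HS value in 8 of the 13 genes and the highest CT value in 6. WD replicate 1 was the highest WD library in 8, including the NAC gene and GLYMA_02G156800.

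The word "only" holds for these genes by the size of the single-stress values and not by a test. All libraries were fitted together with edgeR, and genes were called when the p-value, adjusted by Benjamini-Hochberg over 38410 genes tested, was under 0.05. Of the 13 members, all of which were tested, 5 were called higher and 1 lower under HS than under CT. Over all genes tested 15.9% were called higher and 16.0% lower, 31.8% in all. The 5 were GLYMA_02G156800, GLYMA_08G137000, GLYMA_08G116900, GLYMA_13G090600 and GLYMA_04G208300, with log2 fold changes of 0.40, 0.23, 0.29, 0.45 and 0.70, and the gene called lower was GLYMA_02G208300, at -0.55. Under WD, 1 member was called higher, GLYMA_18G039100 at a log2 fold change of 0.47, beside 0.937% of all genes higher and 0.682% lower, 1.62% in all. These contrasts entered the choice of the members, and nothing is read from the counts beyond the presence of small single-stress changes within the set.

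Those single-stress calls were not stable. The number of members called under HS was 3 without CT replicate 1, 2 without HS replicate 2 and 8 with limma-trend on either FPKM scale. Calls over all genes tested also moved, from 12230 to 10158 without CT replicate 1 and to 9863 without HS replicate 2. With limma-trend they numbered 11032 on log2(FPKM + 1) and 10952 on log2(FPKM + 0.1), of 34060 tested. The call of GLYMA_18G039100 under WD was lost when any 1 of the CT libraries, WD replicate 1 or WD replicate 2 was left out, whereas limma-trend on the FPKM values called 2 members under WD. Over all genes tested, 622 were called under WD with all libraries and 266 to 464 without a CT library. Without WD replicate 1 they numbered 1240, without WD replicate 2 they numbered 666, and limma-trend called 170 and 168.

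Positions of whole groups gave a similar picture. Every HS library was above every CT library in 7 members and below in 1, beside 24.7% and 21.2% of all genes tested. Every WD library was above every CT library in 4 members and below in none, beside 7.42% and 9.14% of all genes tested. Under WD 12 of the 13 log2 fold changes were above 0, and under HS also 12, with medians of 0.32 and 0.38, beside 0.00 and 0.01 over all genes tested. The CT libraries that set the choice are the denominator of both, and nothing is read from these signs or medians.

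Against CT, the log2 fold changes under WD + HS ran from 1.14 for GLYMA_18G039100 to 2.14 for GLYMA_13G298600, with a median of 1.42. Standard errors were between 0.08 and 0.34, the largest being that of GLYMA_06G167900. Against HS the range was 0.86 to 1.99 and against WD 0.67 to 1.83. All 13 members were called higher in each of these comparisons, a result that the choice of members made likely and from which nothing is read. Over all genes tested 17.7% were called higher and 19.1% lower against CT (36.8% in all), 3.21% higher and 5.94% lower against HS (9.15% in all), and 13.7% higher and 16.4% lower against WD (30.2% in all).

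The combination was also set beside the product of the 2 single effects. Because the choice asked for a ratio of 2 under WD + HS and limited each single stress to 1.5, a value above the product was largely built in, and it is given as a description. If the effects of WD and HS multiplied, the 13 genes would have had 0.695 to 2.202 times the CT level under WD + HS, with a median of 1.49. The fitted values were 2.199 to 4.42 times CT, which is 1.40 to 3.91 times that product. For GLYMA_02G208300 the product was 0.695 and the fitted value 2.72. At the other end, the product for the NAC gene GLYMA_04G208300 was 2.102 and the fitted value 2.95, and for GLYMA_17G202600 they were 1.88 and 2.62.

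In the test of the interaction of WD and HS, 7 of the 13 members were called, all with a positive interaction, beside 0.497% of all genes tested in that direction and 2.45% in the other, 2.95% in all. They were GLYMA_02G208300 (1.97 ± 0.22, log2 with standard error), GLYMA_13G298600 (1.45 ± 0.39), GLYMA_04G023500 (1.29 ± 0.24), GLYMA_02G156800 (0.98 ± 0.19), GLYMA_08G116900 (0.82 ± 0.11), GLYMA_08G137000 (0.78 ± 0.11) and GLYMA_18G039100 (0.56 ± 0.15). The other 6, the glycine-rich protein gene and the NAC gene among them, had interactions between 0.48 and 1.09 and were not called. The choice of members also made positive values likely, and nothing is read from this count. With limma-trend on log2(FPKM + 1) or log2(FPKM + 0.1), 2 members were called. Over all genes these 2 fits called 363 and 447 of 34060 tested, where edgeR called 1132 of 38410.

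**Figure D3:**
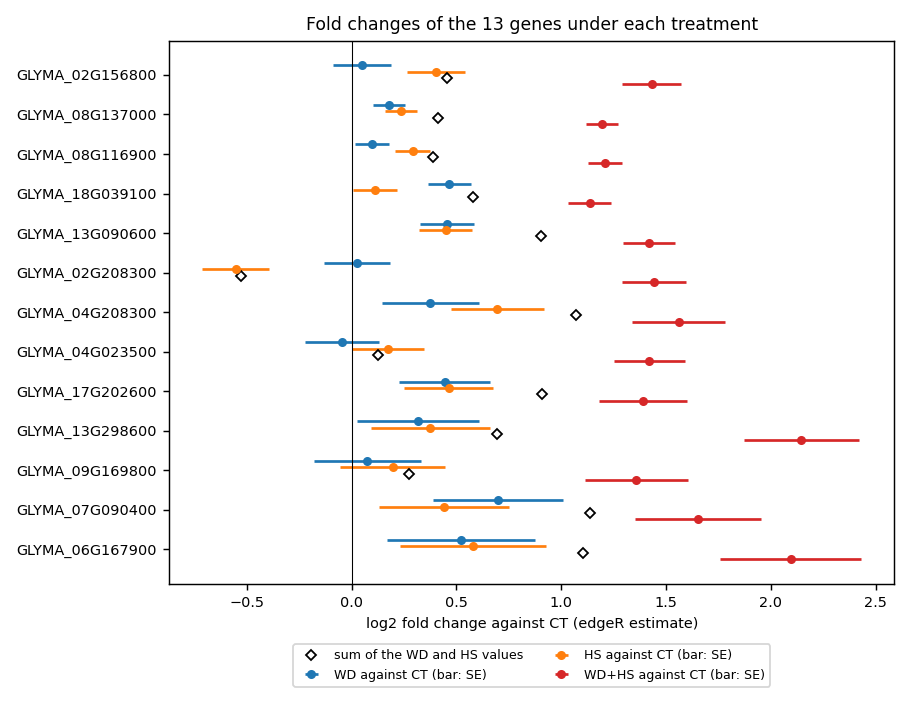
Log2 fold changes against CT of the 13 genes under WD, HS and WD + HS, with bars of 1 standard error, and as open diamonds the sum of the WD and HS values, which is the value expected if the 2 effects multiplied. The WD + HS point is to the right of the diamond in all 13 genes, by 0.48 in GLYMA_17G202600 to 1.97 in GLYMA_02G208300.

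The single stresses were also set against each other. The limit of 1.5 applied to both and bounds how far they can differ in the members, so that these values are descriptions as well, given without a p-value. In the edgeR fit 2 of the 13 members were called, both lower under HS than under WD, where 15.7% of all genes tested were called lower and 14.4% higher, 30.1% in all. Nothing is read from that difference in shares. Every HS library was below every WD library in 2 members and above in 1, GLYMA_04G023500, beside 18.8% and 23.5% of all genes tested.

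GLYMA_02G208300 had 6.04 ± 0.944 CPM under HS and 8.81 ± 0.723 under WD (SD, n = 3), and the fitted log2 ratio of HS to WD was -0.58 with a standard error of 0.16. It was called in 20 of 21 alternatives, the exception being the fit without HS replicate 1. GLYMA_18G039100, whose highest WD library lay just inside the limit, had 19.1 ± 1.43 CPM under HS and 23.8 ± 2.45 under WD, a ratio of -0.36 with a standard error of 0.10. Its call was lost in 5 of 21 alternatives, namely both limma-trend fits on FPKM and the fits without WD replicate 1, HS replicate 1 or HS replicate 3.

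GLYMA_02G156800 and GLYMA_08G116900 had estimates of 0.35 and 0.19, with standard errors of 0.14 and 0.08, and were not called. The balance of directions depended on single libraries and on the scaling. Without WD replicate 1, 3 members were called higher under HS (GLYMA_02G156800, GLYMA_08G116900 and GLYMA_04G208300) and 1 lower (GLYMA_02G208300). Over all genes that fit called 5385 higher and 6024 lower of 39136 tested. Without HS replicate 1, the only member called was GLYMA_02G156800, higher under HS, beside 4499 genes called higher and 5114 lower of 39006 tested. With library sizes taken without factors, 2 members were called higher (GLYMA_02G156800 and GLYMA_08G116900) and 2 lower. Over all genes that fit called 6268 higher and 5344 lower of 38410 tested.

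For the other 9 members the estimates lay between -0.26 and 0.32. The glycine-rich protein gene GLYMA_13G090600 had the value nearest to 0, -0.01 with a 95% interval from -0.25 to 0.24. The interval of GLYMA_06G167900 was the widest, from -0.61 to 0.73.

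**Figure D4:**
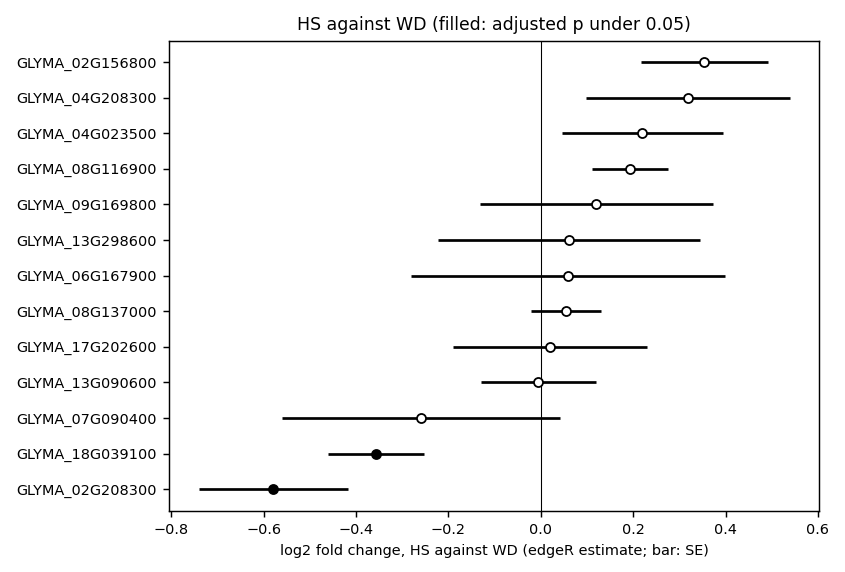
Log2 fold change of HS against WD for each of the 13 genes, ordered by its value, with bars of 1 standard error; filled points have an adjusted p-value under 0.05 in edgeR. The 2 filled points, GLYMA_02G208300 at -0.58 and GLYMA_18G039100 at -0.36, are the lowest.

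The deposited FPKM values, made from the same libraries with Cufflinks, also placed the combination highest in each member. The 3 WD + HS values were above the 9 others in all 13 genes, by 1.39 to 2.60 times at the closest pair of libraries. The choice had already set this order on the counts of the same libraries. It made the order in FPKM likely, and nothing is read from it. The conditions themselves, taken on FPKM, were met by 5 of the 13 members, GLYMA_02G156800, GLYMA_08G137000, GLYMA_18G039100, GLYMA_02G208300 and GLYMA_13G298600. Of the other 8, GLYMA_08G116900, GLYMA_04G023500, GLYMA_17G202600 and GLYMA_09G169800 had ratios to the highest CT value of 1.88 to 1.99 in place of 2. GLYMA_13G090600, GLYMA_04G208300, GLYMA_07G090400 and GLYMA_06G167900 went over the limit of 1.5 under a single stress. In GLYMA_06G167900 that ratio was 1.85 under WD and 1.83 under HS.

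The NAC gene could be set beside 13 genes described as NAC factors, itself included. The descriptions come from lists of genes that the authors selected on these libraries under WD or HS, so that the list is not independent evidence of a direction. Over this list 5 genes were called higher than CT under WD, 3 higher and 1 lower under HS, and 7 higher under WD + HS. Over all genes tested, 0.937% were called higher under WD, 15.9% higher and 16.0% lower under HS, and 17.7% higher under WD + HS. The median log2 fold change against CT was 0.73 for WD, 0.45 for HS and 0.89 for WD + HS, where the medians over all genes tested were 0.00, 0.01 and 0.01. Another of them, GLYMA_02G070000, had 8.85 ± 1.30 CPM in CT, 14.4 ± 3.85 in WD, 12.0 ± 1.73 in HS and 22.4 ± 2.89 in WD + HS. Its highest WD library was 1.82 times the highest CT library, over the limit that GLYMA_04G208300 kept with 1.32. The lowest WD + HS library of GLYMA_02G070000 was 1.91 times the highest CT library, so that it also missed the required ratio of 2.

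The genes that flank the members in the order of identifiers were not part of the choice. Of the 26 flanking genes, 5 had no read in any library and 18 were tested. Under WD + HS, 7 of the 18 were called higher and 2 lower than under CT, beside 17.7% and 19.1% of all genes tested. Under HS, 4 were called higher and 1 lower, beside 15.9% and 16.0% of all genes tested. Under WD 0 were called by edgeR, beside 1.62% of all genes tested. At an unadjusted p under 0.05 in edgeR under WD were 4 of the 18, beside 13.9% of all genes tested. Because it is not stated whether counting used the strand, reads of overlapping neighbours could not be separated.

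The gene after GLYMA_13G090600, GLYMA_13G090700, is also described as a glycine-rich protein. It had 2.93, 3.08 and 3.68 CPM under CT, 4.41, 5.06 and 5.29 under WD, 9.04, 11.6 and 10.2 under HS, and 16.6, 11.8 and 15.7 under WD + HS. It rose under HS by 1.64 on the log2 scale (edgeR adjusted p = 8.45e-07, standard error 0.19), where the estimate for GLYMA_13G090600 was 0.45. It was also higher under HS than under WD, by 1.02 (edgeR adjusted p = 0.000192, standard error 0.18), where GLYMA_13G090600 had an estimate of -0.01; the difference between the 2 genes was not tested. Under WD + HS it was higher than under HS by 0.56 (edgeR adjusted p = 0.0392, standard error 0.17). Their sequences were not compared here, and how reads that map to more than 1 gene were handled is not given in the sources used here.

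**Figure D5:**
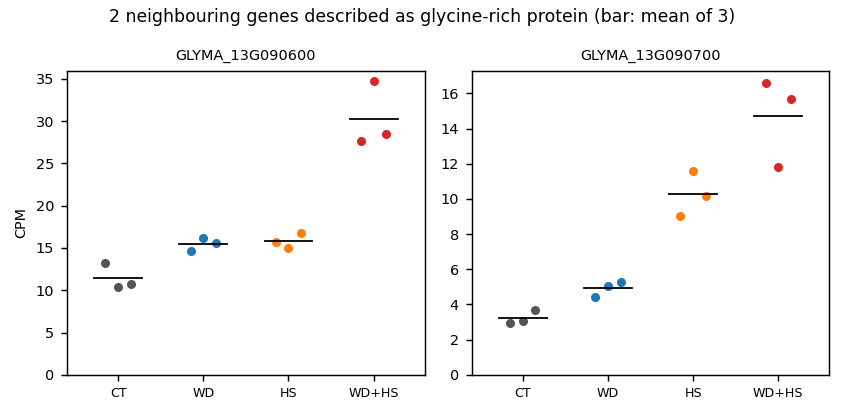
CPM of GLYMA_13G090600 and GLYMA_13G090700, neighbours that are both described as glycine-rich protein, in each library by treatment, with a bar at the mean of 3 libraries. Under HS the former is at 15.01 to 16.8 CPM, close to its WD values, and the latter at 9.04 to 11.6 CPM, about 2 times its WD values of 4.41 to 5.29 CPM.

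Next to GLYMA_17G202600 stands GLYMA_17G202700, described as a zinc finger protein of the CHY and RING types, a kind of protein that in plants includes ubiquitin ligases. It had 140.3 to 157 CPM in CT, 156 to 183 in WD, 492 to 507 in HS and 373 to 407 in WD + HS. It rose by 1.71 on the log2 scale under HS (edgeR adjusted p = 1.26e-12, standard error 0.08), and under WD + HS it was lower than under HS by 0.32 (edgeR adjusted p = 0.00629, standard error 0.07). GLYMA_09G169700, the gene before GLYMA_09G169800 and described as an NAD(P)-linked oxidoreductase, stood at 2.06 ± 0.437 CPM in CT and rose to 4.96 ± 0.819 CPM under HS, which was 1.26 on the log2 scale (edgeR adjusted p = 0.000739, standard error 0.26). These 3 were the flanking genes with a description, and since descriptions were at hand mainly for genes that the authors listed as changed under WD or HS, their rise under heat is not independent of that choice.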

How the data were processed

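Whole closed flowers were profiled by RNA-seq in 12 libraries. After trimming by Trim Galore, the authors mapped reads with HISAT2 (version 2.2.1 in the submitters' processing notes) to the Ensembl Plants assembly of soybean. They deposited a raw read count for every gene and library; the counting program is not given in the sources used here. The deposited FPKM values were made by the authors with Cufflinks. Columns were matched to samples by the labels, and 12 of 12 FPKM columns correlated best with their own count column. Descriptions came from the study's supplementary tables, and the RefSeq table matched no identifier, so that no sequence is shown.

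CPM is the count over the column sum. Counts were tested with edgeR 4.0.16 under R 4.3.3 (a minimum count of 10 in filterByExpr, TMM factors of 0.979 to 1.03, quasi-likelihood test, 1 fit of 4 groups) and Benjamini-Hochberg adjustment over 38410 genes. Standard errors are the absolute log2 fold change over the square root of F, and 95% intervals are 1.96 standard errors on either side. Differences between replicates had a variance 3.51 to 13.5 times that of counting error, over genes with at least 20 reads in the pair, and no libraries were merged. The authors describe the samples as biological repeats of pooled flowers, and p-values measure the spread between pools. All 13 members are named. Other genes are named where they are nearest to a threshold, share the NAC description or flank a member; GLYMA_02G070000 and the flanking genes were chosen after their values were seen.

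Alternatives were DESeq2 1.42.0, other scalings and filters, the replicate number as a block, the trend method of limma 3.58.1 on log2 values of the deposited FPKM, for genes of at least 1 in 3 libraries, other thresholds of the choice, and each library left out. Replicate numbers did not pair the libraries. The members and lists were chosen with earlier results of these data known.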

Additional observations from a re-analysis of the deposited data

How the results depend on the processing

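The number of genes found depended on the thresholds. It was 158 at 1.5 times the highest CT library and 1 at 3 times, 4 with single stresses limited to 1.2 times and 77 with 2 times, 7 on FPKM (5 of them members), and 84 on group means (10 of them members), an alternative chosen after seeing the data; each loosened or tightened threshold changes the count by construction. With TMM sizes it was 13, 12 of them members, GLYMA_06G301500 taking the place of GLYMA_17G202600. With a library left out it ran from 11 to 22, the highest without WD + HS replicate 1. GLYMA_13G090600 and GLYMA_18G039100 were lost without CT replicate 1, GLYMA_06G167900 without CT replicate 2 and GLYMA_04G208300 without CT replicate 3.

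Members called between HS and WD numbered 2, both lower under HS. They numbered 4 with library size without factors, 2 of them higher, and 1 with limma-trend on either FPKM scale, and 1 to 4 with a library left out. Without WD replicate 1, 3 were higher and 1 lower, and without HS replicate 1 the only call was higher. Over all genes, limma-trend called 9801 on log2(FPKM + 1) and 9600 on log2(FPKM + 0.1) of 34060 tested between HS and WD. Members called under WD numbered 2 with limma-trend on either scale and 0 to 1 with a library left out. Those called under HS numbered 8 with limma-trend on either scale and 2 to 6 with a library left out. Calls over all genes moved as well, as given above. Members with an interaction numbered 2 with limma-trend on either scale, where calls over all genes were also fewer (363 and 447 of 34060 tested). The median interaction of the members was 0.48 with log2(FPKM + 1) and 0.54 with log2(FPKM + 0.1). The median of WD + HS against WD was 0.95 with log2(FPKM + 1). The WD estimate of GLYMA_04G023500 turned from -0.05 to 0.16 and 0.19 on the 2 FPKM scales. The cause of these shifts was not tested. All 13 members were called in WD + HS against CT in each of 20 alternatives, beside 36.8% of all genes tested in the main fit. The choice of members made these calls likely, and nothing is read from them. With the replicate block, members called between HS and WD stayed 2; same-numbered libraries of different groups correlated from -0.10 to 0.10 in their deviations, and 3 of 12 libraries correlated best with their own number. GLYMA_06G167900, at 11 to 48 reads under CT, had the largest standard error among the members in WD + HS against CT (0.34).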
